A study of Rattus norvegicus with 8 samples.

Results

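Proteasome subunit genes were followed in H9C2 cells, a line of rat cardiomyoblasts, that carried 1 of 3 constructs of the nuclear receptor PPARα or a control construct without it. They were chosen by name: features called Psma, Psmb, Psmc, Psmd, Psme, Psmf or Psmg plus a digit, without the immunoproteasome genes Psmb8, Psmb9 and Psmb10, and with at least 10 total exon reads in 2 libraries. Of 32258 features in the deposited table, 48 matched the names and 43 were kept, against 12642 features that reach the same read minimum. Besides the 3 immunoproteasome genes, the testis gene Psma8 with 28 reads in all and the thymus gene Psmb11 with 8 were left out as too low. Psmd10, with 9 to 68 reads a library and 7 libraries at 10 or more, was the kept gene nearest to the minimum, and Psma8 reached it in 1 library. All 43 passed the filter on low counts used for the test. The name rule also took in Psmc3ip, whose product acts in meiotic recombination and is not a proteasome subunit, so 42 members are proteasome genes. Psme3 was not analysed here.

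The proteasome is the cell's main machine for degrading proteins tagged with ubiquitin. Its barrel, the 20S core, stacks rings of alpha subunits, which gate the entrance, on rings of beta subunits, of which Psmb6, Psmb7 and Psmb5 cleave peptide bonds with caspase-like, trypsin-like and chymotrypsin-like activity. A 19S particle on the end of the barrel unfolds substrates with a ring of ATPases and recognises and strips ubiquitin with non-ATPase subunits. Chaperones assemble the parts, and alternative caps such as PA28 and PA200 can take the place of the 19S particle. Since each finished core holds every ring subunit in equal number, surplus subunits are usually degraded. Heart muscle is rich in proteasomes, and PPARα, which pairs with RXR on DNA, is best known there for switching on genes of fatty acid use.

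The cells received a pDC316 vector with yellow fluorescent protein by transduction and were taken 2 days later. The control had YFP alone (YFP). The other groups carried YFP-PPARα in wild-type form (WT), with alanine in place of serine 280 (S280A, labelled phospho-resistant), or with aspartate at that place (S280D, labelled phospho-mimicking). Each group had 2 libraries of poly(A) RNA, and the labels do not say whether these were grown apart. The p-values thus cover the spread between these samples alone, and that may be technical. The receptor was overproduced from a vector in 1 cell line that keeps its own Ppara gene, whose reads are counted together with the delivered ones. Ppara stood at 74.4 and 59.5 CPM (reads scaled to library size) in YFP, and at 12382 and 24134 with WT, 17400.2 and 13736 with S280A, and 17911 and 17693 with S280D. The 2 WT libraries thus differed in receptor reads, with the second above every library of the mutants.

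Libraries held 14018785 to 39526013 exon reads, and the members took 0.600% to 0.714% of them. The deepest library was S280D replicate 1, and the next, S280D replicate 2, held 21050137 exon reads. The first principal component of all genes carried 56.4% of the variance and placed WT and S280D (20.7 to 47.5) apart from YFP and S280A (-51.0 to -16.4). Both YFP libraries came from lane 1 and both WT libraries from lane 2, per the file headers, so these 4 libraries alone cannot tell lane from construct. Each mutant was split over both lanes, and a lane term in the joint fit is estimated from the mutants. The summed level of 8 markers of cardiomyoblasts was 17321 to 20959 CPM in YFP, 14845 to 15745 CPM in WT, 19637 to 24861 CPM in S280A and 13452 to 14964 CPM in S280D. Nearly all of that sum was Vim and Acta2, which are not particular to muscle cells. Des, Actc1 and Myog lay near the floor, at no more than 0.89, 1.33 and 0.82 CPM in any library. In S280D against S280A, Vim, Acta2 and Actc1 fell (-0.57, -0.74 and -1.43) and Mef2c rose (1.33). Tnnt2 (0.03), Des (0.06), Gata4 (-0.43) and Myog (2.21) did not pass. Markers of macrophages reached at most 1.25 CPM with Ptprc at 0, and those of endothelial and epithelial cells at most 0.12 CPM. The part of the marker levels in the results was not tested, and in bulk RNA a change in the cells present and a change in RNA per cell cannot be told apart.

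Transcript levels of subunits that are equal in number in the particle were far from equal. Per kilobase, in the authors' RPKM averaged over the 8 libraries, the 14 core genes ran from 24.5 (Psma5) to 356 (Psmb3), a 14.6-fold span, with a median of 79.1. The 17 genes of the 19S particle ran from 16.6 (Psmc6) to 203 (Psmd4), a 12.3-fold span. Of the catalytic genes, Psmb5 was at 65.1 RPKM, Psmb7 at 40.4 and Psmb6 at 194. Only 19% of the exon reads of Psmb6 mapped to 1 place, and the share was also low for Psme2 (20.8%), Psme1 (40.6%), Psmb3 (45.6%), Psma3 (47%), Psma6 (54.3%) and Psmd10 (71.5%). Reads of these 7 can belong to near-identical copies, so their levels, and any order that rests on them, are uncertain. The other 36 members had over 90% unique reads.

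S280D against S280A, the opposed mutants, was the comparison with the most member calls. By edgeR's quasi-likelihood test with Benjamini-Hochberg adjustment over all 12407 genes tested, at an adjusted p under 0.05, 6 members rose and 16 fell of 43, or 51.2%, where 39.3% of all genes were called. Higher calls were 14% of members against 21.3% of all genes, and lower calls 37.2% against 18%. Both S280D libraries lay above both S280A libraries for 10 members (36.6% of all genes did) and below them for 25 (37.7%). The median log2 fold change of the members was -0.24, where that of all genes was -0.01. By role, 3 of 7 alpha ring genes rose and 1 fell, 0 of 7 beta ring genes rose and 5 fell, and the largest rises were 1 ATPase and 1 cap gene. The authors' deposited table listed 3 members as higher and 12 as lower in this pair at an adjusted p under 0.05, and each was also called here in the same direction. Both tests rest on the same libraries, and the share of all features that the authors' test called is not given here.

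Those counts rest on few libraries. Leaving out S280A replicate 2 gave 3 higher and 4 lower, leaving out S280D replicate 1 gave 3 and 2, and leaving out S280D replicate 2 gave 5 and 10, while leaving out WT replicate 2, which enters only through the shared spread, gave 3 and 15. Psme4, Psmc6, Psma3, Psmb6 and Psme2 kept their calls in all 8 such fits, and every call kept its sign. These fits used total reads, and on unique reads, 20.8% of its total, Psme2 did not pass (-0.60 ± 0.27, adjusted p = 0.0824).

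**Figure D1:**
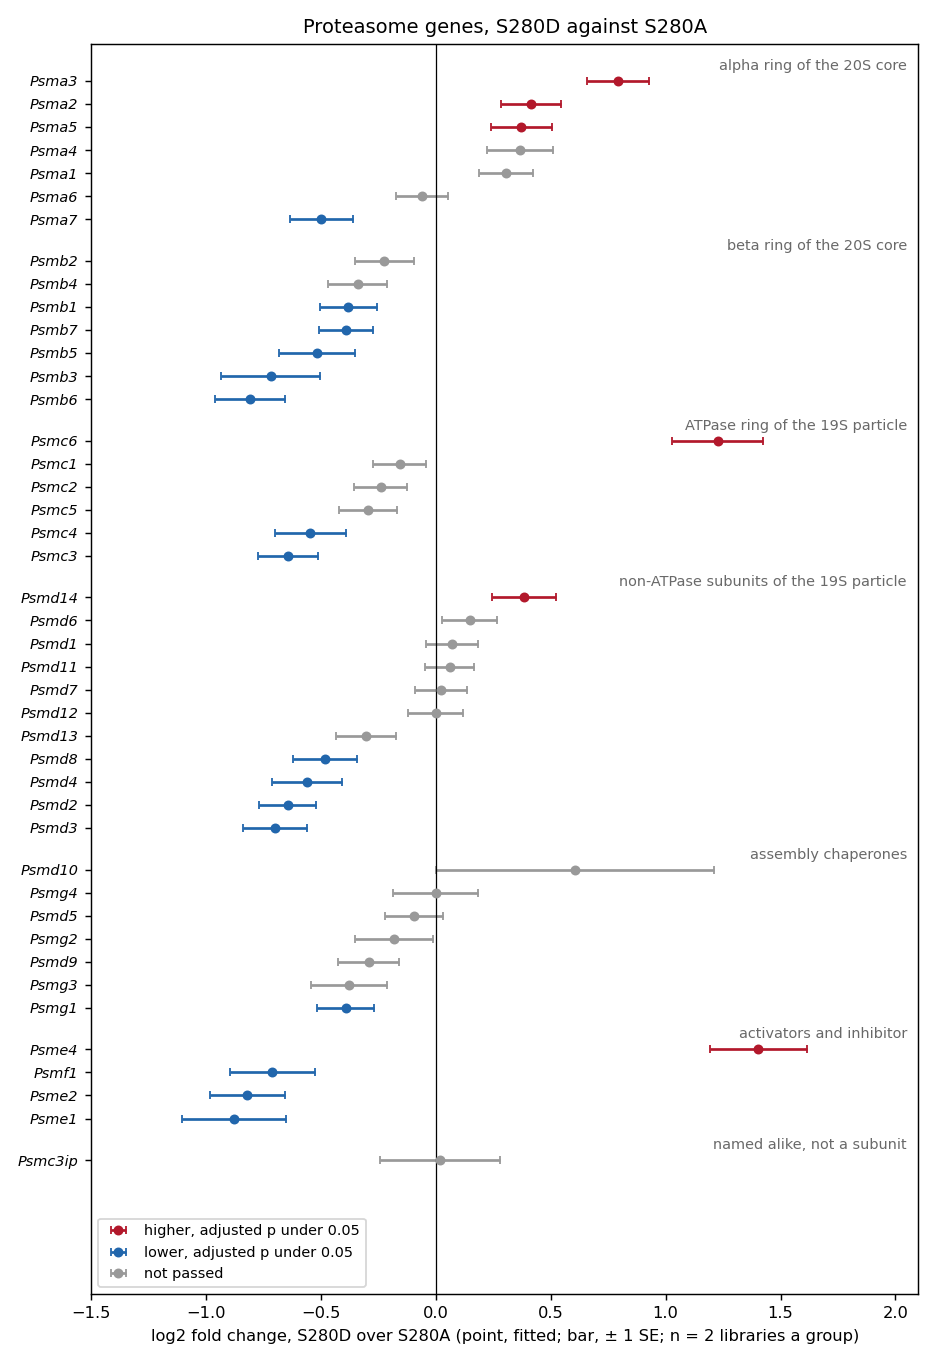
Fitted log2 fold change of each of the 43 members in S280D over S280A (horizontal axis; points, edgeR estimates; bars, ± 1 SE; 2 libraries a group), grouped by role and coloured by the test. All 7 beta ring genes lie below 0, 5 of 7 alpha ring genes lie above 0, and Psme4 (1.40) and Psmc6 (1.23) lie farthest to the right.

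In the alpha ring, Psma3, Psma2 and Psma5 rose and Psma7 fell in S280D against S280A, with a median log2 fold change of 0.37 over the 7 genes. Psma3 (chromosome 6, 93423001 to 93444240 in Rnor_6.0) was at 155 and 190.4 CPM with YFP, 238 and 210.3 with WT, 144 and 131 with S280A, and 252 and 224 with S280D. Both S280D libraries lay above all YFP and S280A libraries, and both S280A libraries lay below all others. The log2 fold change over S280A was 0.79 ± 0.13 (SE), adjusted p = 0.00238. On unique reads alone it was 0.88 ± 0.15, adjusted p = 0.00104.

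The other alpha genes moved less. Psma2 was at 32.7 and 33.7 CPM with YFP, 37.3 and 33 with WT, 25.2 and 25.4 with S280A, and 34 and 33.5 with S280D, so the S280A libraries lay below all 6 others, with a log2 fold change of 0.41 ± 0.13 (adjusted p = 0.0283). Psma5 gave 0.37 ± 0.13 (0.0417), while Psma4 (0.37 ± 0.14, 0.0632) and Psma1 (0.30 ± 0.12, 0.0577) did not pass. The calls of Psma2 and Psma5 were lost in 5 and 6 of the 8 fits that left out a library, where their adjusted p reached 0.14 and 0.165, with all estimates above 0. Psma7 went the other way, at 236 and 178 CPM with YFP, 189.6 and 188 with WT, 193 and 210.5 with S280A, and 139.9 and 146 with S280D. The S280D libraries were the lowest of all 8, and the fitted change was -0.50 ± 0.14 (adjusted p = 0.0157). Its call was lost without S280A replicate 2, S280D replicate 1 or S280D replicate 2 (adjusted p up to 0.132). Psma6, at -0.06, did not pass.

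In the beta ring all 7 log2 fold changes in S280D against S280A were negative, with a median of -0.39, and 5 genes fell. The caspase-like Psmb6 (chromosome 10, 57131385 to 57133637) was at 202 and 209 CPM with YFP, 129.7 and 141 with WT, 162 and 231 with S280A, and 109 and 116 with S280D. The S280D libraries were the lowest of all 8 and the YFP and S280A libraries lay above both WT libraries. The log2 fold change was -0.81 ± 0.15 (SE), adjusted p = 0.00341, and on unique reads -0.75 ± 0.15, adjusted p = 0.00238.

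The chymotrypsin-like Psmb5 (chromosome 15, 33259042 to 33263659) was at 80.6 and 70.9 CPM with YFP, 61.5 and 60.5 with WT, 62.8 and 88.6 with S280A, and 48.2 and 57.7 with S280D. S280A replicate 2 was the highest library and replicate 1 lay near WT. The log2 fold change was -0.52 ± 0.16 (adjusted p = 0.029). Without S280A replicate 2 it was -0.26 and did not pass (adjusted p = 0.28), nor did it pass without S280D replicate 1 (0.239). The trypsin-like Psmb7 (chromosome 3, 22871104 to 22952063) was at 95.7 and 94.2 CPM with YFP, 71.8 and 71.5 with WT, 81.3 and 91.4 with S280A, and 69.3 and 62.3 with S280D. Its S280D libraries were the lowest, with a log2 fold change of -0.39 ± 0.12 (adjusted p = 0.0229). Its locus overlaps that of Nek6 in the table (not given in the sources used here: whether counting used strand).

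The structural beta genes followed the same sign. Psmb3 was at 405 and 229.9 CPM with YFP, 321 and 297 with WT, 409 and 529 with S280A, and 279.9 and 291 with S280D, with a log2 fold change of -0.72 ± 0.22 (adjusted p = 0.023). The YFP libraries of this gene lay far apart, and its mutant libraries did not overlap. Psmb1 gave -0.38 ± 0.13 (0.0326), and Psmb4 (-0.34 ± 0.13, 0.0546) and Psmb2 (-0.22 ± 0.13, 0.192) did not pass. The calls of Psmb7, Psmb3 and Psmb1 were lost when S280A replicate 2, S280D replicate 1 or S280D replicate 2 was left out, with adjusted p up to 0.145, 0.178 and 0.248, and that of Psmb1 also without either WT library. The count of beta genes that fell was then 1, 1 and 2 in place of 5, whereas all 7 estimates were negative in every fit run. Pairing the same 4 mutant libraries by lane, the median beta difference in lane 1 was -0.55 and in lane 2 it was -0.20, against 0.39 and 0.21 for the alpha ring.

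**Figure D2:**
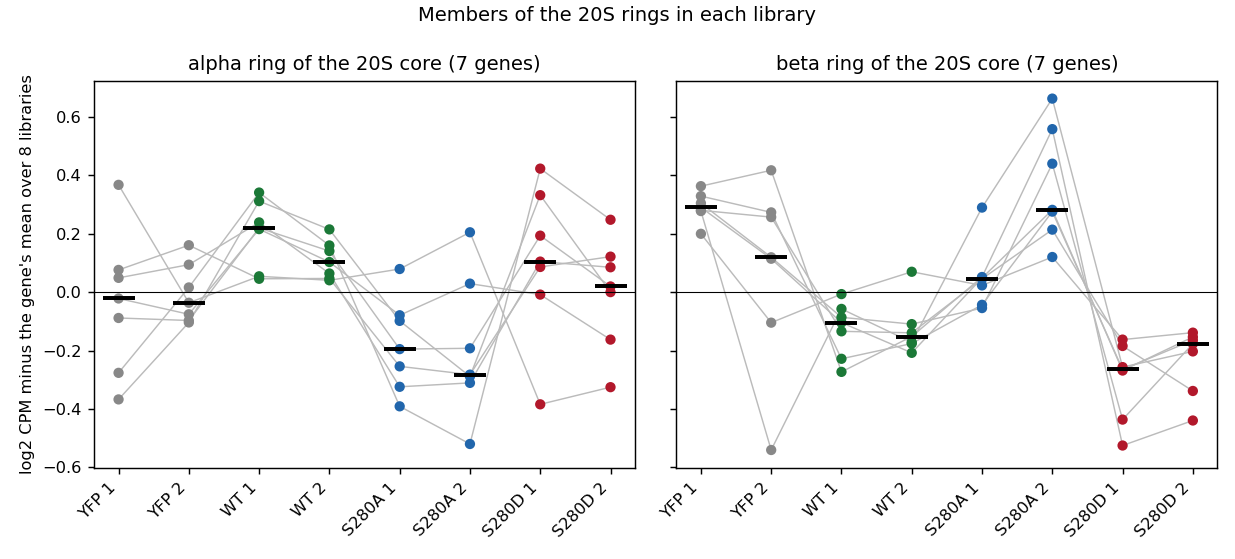
Level of each ring gene in each library as log2 CPM minus that gene's mean over the 8 libraries (vertical axis), with alpha genes on the left and beta genes on the right; points are genes coloured by construct, grey lines join a gene over libraries and black bars are medians. Alpha medians are lowest in S280A (-0.20 and -0.28) and beta medians are lowest in S280D (-0.26 and -0.18).

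The promoters were searched for motifs of known regulators of proteasome genes. In RefSeq's GRCr8 tables, 39 of the 43 members had a window of 250 bases before to 50 after the start site; Psma7, Psmd6, Psmd12 and Psmd14 had none. NFE2L1, which drives proteasome genes when the proteasome is inhibited, binds antioxidant response elements (ARE), whose core was searched as TGACNNNGC on both strands. It was found in 8 of 39 member windows (20.5%) and in 12.1% of all 33469 windows, and in 3 of 7 beta genes and 1 of 6 alpha genes. The hits shown are those upstream of the start in the beta ring, with the alpha gene and the cap gene that rose most, along the gene's strand, core in capitals, each with 20 bases of flank but none past the start site. Counted from the start, the core begins at -24 in Psmb6, -60 in Psmb5, -68 in Psmb2, -12 in Psma3 and -55 in Psme4.
Psmb6: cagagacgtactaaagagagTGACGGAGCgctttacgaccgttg
Psmb5: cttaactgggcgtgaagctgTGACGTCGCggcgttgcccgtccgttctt
Psmb2: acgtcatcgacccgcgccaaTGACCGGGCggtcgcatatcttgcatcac
Psma3: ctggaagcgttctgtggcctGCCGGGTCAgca
Psme4: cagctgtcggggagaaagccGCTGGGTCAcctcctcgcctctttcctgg
They lie in GRCr8 at chr10:55737844-55737887, plus strand (Psmb6), chr15:32047411-32047459, minus strand (Psmb5), chr5:144254970-144255018, plus strand (Psmb2), chr6:95219717-95219748, plus strand (Psma3) and chr14:108706568-108706616, plus strand (Psme4). In Psma3 and Psme4 the core is on the opposite strand to the gene, so it reads in reverse complement. Of the 8 members with the core, Psmb5, Psmb6 and Psmd3 fell in S280D against S280A. Psma3 and Psme4 rose, and Psmb2, Psmd1 and Psmd9 did not pass. A match is only a string of letters, and no binding was measured.

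Other motifs were searched in the same windows and on both strands. CCAAT, bound by NF-Y, was in 19 of 39 windows (48.7%, against 37.5% of all), with 5 of 6 alpha and 4 of 7 beta genes. The CREB site TGACGTCA was in 1 window, that of Psmb2, against 1.83% of all. AGGTCA, the half-site that PPARα and RXR read in pairs, was in 7 of 39 windows (17.9%, against 16.2% of all), in no beta gene and in 1 alpha gene, Psma2. In Psmd1 and Psmd9 the half-site on the opposite strand overlaps the ARE core, and in Psmb2 the last base of CCAAT is the first of the core. A pair of half-sites in tandem with 1 base between them (DR1), the form bound by PPARα with RXR, was in 0 of 39 windows and 0.0538% of all. This says only that the letters are not in these windows.
Psma2: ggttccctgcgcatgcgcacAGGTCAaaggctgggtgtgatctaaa
The Psma2 half-site is shown in capitals because it is the only one in a ring gene (chr17:55260561-55260606, minus strand).

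The 2 rings can also be set against each other within a library, where depth and scaling cancel. The log2 ratio of the geometric mean RPKM of the alpha genes to that of the beta genes was -0.85 and -0.60 for YFP, -0.19 and -0.28 for WT, -0.75 and -1.08 for S280A, and -0.11 and -0.29 for S280D. On total reads the beta ring was thus the higher in all 8 libraries. Its lead was smaller in WT and S280D than in YFP and S280A, with no overlap between these pairs of groups. On unique reads the values were -0.63 and -0.40, 0.02 and -0.06, -0.56 and -0.89 and 0.12 and -0.07, in the same order of groups. The alpha ring was then the higher in WT replicate 1 and S280D replicate 1. Over the 5 alpha and 5 beta genes with at least 90% unique reads they were -0.57 and -0.43, -0.01 and -0.09, -0.46 and -0.74 and 0.03 and -0.13. No test was made of the ratio, which was set up after the fold changes were seen. From the fit, alpha minus beta was 0.72 on the log2 scale in S280D against S280A, and 0.55 to 0.88 over the alternative fits, the lowest without S280A replicate 2.

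**Figure D3:**
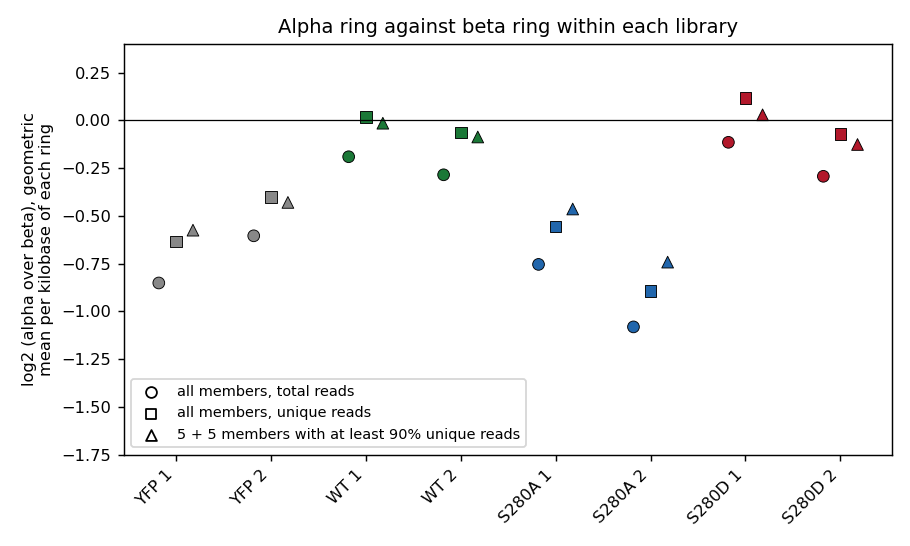
Log2 ratio of alpha to beta ring levels per kilobase (geometric means, vertical axis) in each of the 8 libraries, coloured by construct; circles use total reads, squares unique reads and triangles the members with at least 90% unique reads. WT and S280D libraries lie above YFP and S280A libraries with each way of counting, and S280A replicate 2 is the lowest (-1.08 on total reads).

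In the ATPase ring Psmc6 rose and Psmc3 and Psmc4 fell, against a median of -0.27 over the 6 genes. Psmc6 (chromosome 15, 19667452 to 19688914), the ring member with the lowest level per kilobase, was at 32.7 and 38.2 CPM with YFP, 60.1 and 48.7 with WT, 28.9 and 25.5 with S280A, and 76.7 and 50.4 with S280D. All WT and S280D libraries lay above all YFP and S280A libraries. The log2 fold change of S280D over S280A was 1.23 ± 0.20 (SE), adjusted p = 0.00205. Psmc3 was at 324 and 271 CPM with YFP, 227 and 244 with WT, 294 and 354 with S280A, and 201 and 214 with S280D, the S280D libraries being the lowest. Its log2 fold change was -0.64 ± 0.13 (adjusted p = 0.00481) and that of Psmc4 was -0.55 ± 0.15 (0.0178), calls that were lost without S280A replicate 2 or S280D replicate 1 (adjusted p up to 0.0638 and 0.147). Psmc1, Psmc2 and Psmc5, at -0.16, -0.24 and -0.30, did not pass. Psmc6 alone went against the sign of the other 5.

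Of the 11 non-ATPase genes of the 19S particle, Psmd2, Psmd3, Psmd4 and Psmd8 fell, Psmd14 rose and 6 did not pass, with a median of -0.00089 on the log2 scale. Psmd2, a scaffold at the base of the particle (chromosome 11, 83934086 to 83944763), was at 462 and 398 CPM with YFP, 314 and 322 with WT, 405 and 482 with S280A, and 277 and 290.2 with S280D. WT and S280D libraries lay below all YFP and S280A libraries. The log2 fold change was -0.64 ± 0.13 (SE), adjusted p = 0.00378, and the call was lost only without S280D replicate 1 (0.0531). Psmd3, a lid subunit, gave -0.70 ± 0.14 (0.0041), also lost without that library (0.0563). The ubiquitin receptor Psmd4 gave -0.56 ± 0.15 (0.0152) and Psmd8 -0.48 ± 0.14 (0.0197). Both calls were lost without S280A replicate 2 or S280D replicate 1, and that of Psmd4 also without S280D replicate 2 (adjusted p up to 0.104 and 0.198).

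Psmd14 is the subunit that removes ubiquitin from substrates (chromosome 3, 47578383 to 47673338). It was at 146 and 133 CPM with YFP, 238 and 208 with WT, 180.0 and 155 with S280A, and 242 and 196 with S280D, so every receptor library lay above both YFP libraries. WT over YFP gave 0.67 ± 0.14 (SE) with adjusted p = 0.0103, which was lost without WT replicate 1 (0.117). In S280D against S280A it was 0.38 ± 0.14 (0.0461), close to the threshold and lost without S280A replicate 2, S280D replicate 1 or either WT library (adjusted p up to 0.36). Psmd13 gave -0.30 ± 0.13 (0.0846) and Psmd6 0.15 ± 0.12 (0.343) in that pair, and neither passed. Differences of Psmd1, Psmd7, Psmd11 and Psmd12 in this pair lay between -0.00089 and 0.07, with SE of 0.11 to 0.12.

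**Figure D4:**
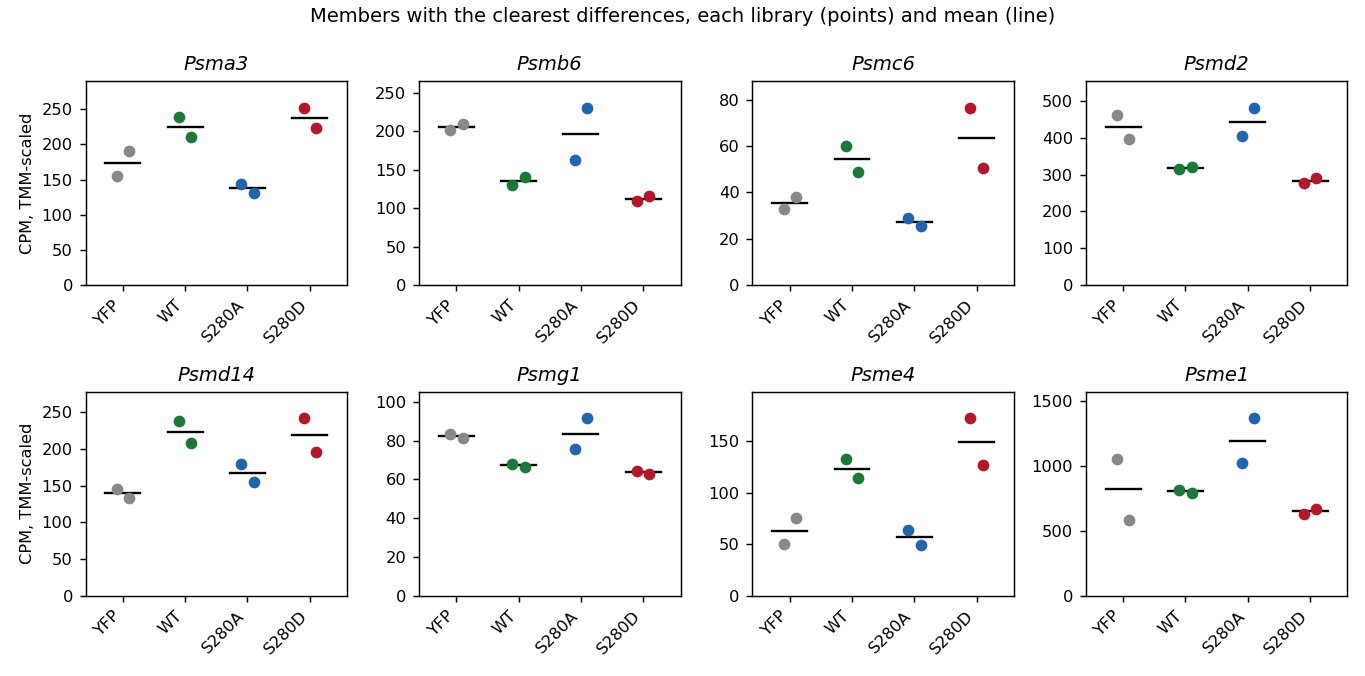
CPM (vertical axes from 0, TMM-scaled) of 8 members in each construct; points are the 2 libraries and lines their mean. Psmc6, Psme4 and Psma3 are higher in both S280D libraries than in both S280A libraries, Psmb6, Psmd2, Psmg1 and Psme1 are lower, and Psmd14 is lowest in YFP.

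Of the 7 assembly chaperones Psmg1 fell and 6 did not pass, with a median of -0.18. Psmg1, which pairs with Psmg2 to build alpha rings, was at 83.6 and 81.6 CPM with YFP, 68 and 66.6 with WT, 75.5 and 91.6 with S280A, and 64.2 and 63 with S280D. WT and S280D libraries lay below all YFP and S280A libraries. S280D differed from S280A by -0.39 ± 0.12 (SE), adjusted p = 0.0272, lost without S280A replicate 2, S280D replicate 1 or S280D replicate 2 (up to 0.204). Its partner Psmg2 gave -0.18 ± 0.17 (0.413). Psmg3, which acts with Psmg4 early in alpha ring assembly, was at 26.6 and 25.7 CPM with YFP, 17 and 20.5 with WT, 21 and 23.5 with S280A, and 15.6 and 18.8 with S280D. Both S280D libraries lay below both YFP libraries, and the fold change over YFP was -0.61 ± 0.16 (adjusted p = 0.0173), while that over S280A did not pass (0.0885). Psmd5, Psmd9 and Psmd10, chaperones of the ATPase ring, gave -0.09, -0.29 and 0.61 and did not pass, nor did Psmg4 (-0.00084, SE 0.19) or Psmc3ip (0.02 ± 0.26). Psmd10 had an SE of 0.60 at its 9 to 68 reads, so a change of that size was not detectable at this depth.

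All 4 genes of the caps and the inhibitor were called in S280D against S280A, 1 up and 3 down. Psme4, the PA200 cap (chromosome 14, 115166415 to 115269056), was at 49.9 and 75.3 CPM with YFP, 132 and 114 with WT, 64 and 49.2 with S280A, and 172 and 127 with S280D. All WT and S280D libraries lay above all YFP and S280A libraries. S280D over S280A gave 1.40 ± 0.21 (SE), adjusted p = 0.00185, a 2.65-fold higher level. With an offset for exon length it was 0.78, smaller in size than Psme1 (-0.99), Psmd2 (-0.99) and Psmc6 (0.95) in that fit. Its exon length of 7130 bases was also the greatest of the 43.

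The interferon-responsive PA28 genes Psme1 and Psme2 and the inhibitor Psmf1 fell. Psme1 (chromosome 15, 34256070 to 34258947) was at 1054 and 586 CPM with YFP, 815 and 792 with WT, 1022 and 1368 with S280A, and 631 and 669 with S280D. Both S280D libraries lay below both S280A libraries, and both WT libraries lay between the 2 YFP libraries. S280D differed from S280A by -0.88 ± 0.23 (SE), adjusted p = 0.0119, or -0.82 ± 0.26 (0.0233) on unique reads. Psme2, its neighbour and partner, was at 267 and 195 CPM with YFP, 227 and 219 with WT, 238 and 304 with S280A, and 147 and 160.3 with S280D. S280D libraries were the lowest, with -0.82 ± 0.16 (0.00399), but on unique reads the value was -0.60 ± 0.27 and did not pass (0.0824). Psmf1 gave -0.71 ± 0.18 (0.0122). The calls of Psme1 and Psmf1 were lost without S280A replicate 2 or S280D replicate 1 (up to 0.114 and 0.135). The left-out immunoproteasome genes, which share interferon control with PA28, were -0.52 for Psmb9 (0.0341), -0.80 for Psmb10 (0.012) and -0.41 for Psmb8, which did not pass (0.0796).

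Against the YFP control members were called in S280D and in WT, and 0 in S280A; the 3 comparisons share the control libraries. In S280D against YFP 4 members rose and 14 fell, where 30.7% of all genes were called (17.1% higher and 13.7% lower). The libraries of the pair did not overlap for 9 members higher in S280D (33.9% of all genes) and 22 lower (35.7%). Psme4 (1.26 ± 0.21, adjusted p = 0.00237), Psmc6 (0.85 ± 0.19, 0.00908), Psmd14 (0.65 ± 0.14, 0.00682) and Psma3 (0.46 ± 0.13, 0.0246) rose. The beta ring again had 7 negative values, of which Psmb6 (-0.87 ± 0.15, 0.00294), Psmb7 (-0.53), Psmb5 (-0.52), Psmb4 (-0.52) and Psmb1 (-0.42) fell. Psma7, Psmc3, Psmc1, Psmc5, Psmd2, Psmd13, Psmg1 and Psmg3 fell as well, between -0.61 and -0.35. Psme2 was also called lower (-0.59), but on unique reads it turned to 0.38 ± 0.27 and did not pass (0.287), and Psmb6 on unique reads was -0.40 ± 0.15, adjusted p = 0.0531.

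Only the calls of Psme4 and Psmb6 in S280D against YFP held in all 8 fits that left out a library. The counts were 2 higher and 3 lower without YFP replicate 1, 1 and 2 when S280D replicate 1 was left out, 5 and 7 without S280D replicate 2, 4 and 9 without WT replicate 1, and 4 and 8 without WT replicate 2. With lane as a covariate they were 3 and 2. Within lane 1, where 1 S280D library meets both YFP libraries, the median was -0.47 for the beta ring and 0.04 for the alpha ring.

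In WT against YFP 5 members rose and 5 fell, where 19.6% of all genes were called (12.2% higher and 7.45% lower). WT libraries lay wholly above YFP for 10 members (32% of all genes) and wholly below for 16 (32.3%). Those that rose were Psme4 (0.98 ± 0.21, adjusted p = 0.0118), Psmd14, Psmc6 (0.62 ± 0.19, 0.0454), Psma4 and Psmd6. Psma4 was at 93.4 and 112 CPM with YFP, 149.6 and 139.9 with WT, 113 and 98.6 with S280A, and 152 and 121 with S280D, both WT libraries lying above both YFP libraries, with 0.49 ± 0.14 (0.0359). Those that fell were Psmb6 (-0.60 ± 0.15, 0.0216), Psmb4 (-0.50), Psmd13 (-0.45), Psmd2 (-0.44) and Psmb7 (-0.41). On unique reads Psmb6 gave -0.19 ± 0.15 and did not pass (0.381). Psma6 (0.54 ± 0.12, 0.00704) and Psme2 (0.91 ± 0.27, 0.0280) were called higher on unique reads, against 0.21 and -0.05 on total reads. The counts on unique reads were 7 higher and 5 lower. No call of this pair held in all 8 fits that left out a library: the counts were 0 and 0 without WT replicate 1, 2 and 0 without WT replicate 2, 1 and 0 without YFP replicate 1, 4 and 2 when S280D replicate 1 was left out, 4 and 3 without S280D replicate 2, and 5 and 8 without S280A replicate 2. With lane as a covariate 0 members were called: Psme4 was 1.02 ± 0.32 (adjusted p = 0.165), Psmd14 0.72 ± 0.22 (0.157) and Psmb6 -0.39 ± 0.22 (0.407). Alpha minus beta was then 0.42, against 0.50 without the lane term.

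In S280A against YFP edgeR and DESeq2 called 0 of 43 members, where edgeR called 0.0403% of all genes. At an unadjusted p under 0.05 in edgeR there were 8 of the 43 members and 1439 of all 12407 genes. For 9 members S280A lay wholly above YFP (17.9% of all genes) and for 12 wholly below (19.9%). The largest differences were 0.56 ± 0.22 for Psmb3 and 0.54 ± 0.22 for Psme1, both with YFP libraries far apart, and -0.85 ± 0.62 for the sparse Psmd10. Without YFP replicate 1, 3 members were called higher. An adjusted p above the threshold with 2 libraries a group does not show that S280A left the genes unchanged.

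S280A differed from WT for 11 members, 4 higher and 7 lower, where 26% of all genes were called (10.1% higher and 15.9% lower). S280A lay wholly above WT for 21 members (34.6% of all genes) and wholly below for 12 (35.2%). This pair shares the S280A libraries with the comparison of the mutants, so the 2 are not independent. Psmb6 (0.54 ± 0.15, adjusted p = 0.0273), Psmd3 (0.49), Psmd2 (0.48) and Psmc3 (0.46) were higher in S280A. Psme4 (-1.12 ± 0.21, 0.00849), Psmc6 (-1.0004 ± 0.20, 0.00935), Psma3 (-0.71 ± 0.13, 0.00864), Psma2, Psma4, Psma1 and Psmd14 were lower. All 7 beta values were positive and 6 of 7 alpha values negative. The counts were 0 and 0 without WT replicate 1 and without S280A replicate 2, 0 and 3 without WT replicate 2, 12 and 5 without S280A replicate 1, and 9 and 7 without either YFP library. With an offset for exon length the split turned to 13 higher and 2 lower. The share of all genes called in that fit is not given here, so these counts do not show whether the shift is particular to the members.

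S280D against WT gave 0 member calls with edgeR and with DESeq2, where edgeR called 0.0403% of all genes. At an unadjusted p under 0.05 in edgeR there were 3 of 43 members (Psmf1, Psme2 and Psma7) and 606 of all 12407 genes. Psmf1 was -0.54 ± 0.18 (adjusted p = 0.85), Psme2 -0.54 ± 0.16 (0.697) and Psma7 -0.40 ± 0.14 (0.866). S280D lay wholly above WT for 1 member (19.4% of all genes) and wholly below for 23 (21.2%). The member median was -0.11 and all 7 beta values were negative, between -0.27 and -0.01.

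Genes that act around the proteasome were called in both directions. A list of 38 symbols covered ubiquitin genes, E1 enzymes, accessory proteins, shuttle factors and regulators, and 34 were tested. Sem1, Ufd1, Ubb and Ecpas were not found, but Sem1 and Ufd1 were also listed, and tested, as Shfm1 and Ufd1l. In S280D against S280A 8 of the 34 were higher and 8 lower, where 21.3% and 18% of all genes were called. Ube3a, a ubiquitin ligase that docks on the 19S particle, was at 24.7 and 26.7 CPM with YFP, 74 and 52.5 with WT, 34.5 and 18.8 with S280A, and 97.4 and 71.6 with S280D. It rose by 1.66 ± 0.26 (SE) on the log2 scale (adjusted p = 0.00185), with both S280D libraries above both S280A libraries. Uba6, the alternative E1 enzyme, gave 1.37 ± 0.25 (0.00304) and Zfand5, which activates the proteasome, 0.91 ± 0.17 (0.00359). Adrm1, a ubiquitin receptor of the 19S particle, fell (-0.58 ± 0.12, 0.00523). In S280D against YFP 5 of the 34 rose and 6 fell (17.1% and 13.7% of all genes), with Uba6 at 1.73 ± 0.25, Ube3a at 1.72 ± 0.26, Usp14, a deubiquitinase of the 19S particle, at 0.57 ± 0.15 and the shuttle Ubqln4 at -0.55 ± 0.14.

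In WT against YFP 5 of these 34 genes rose and 0 fell, where 12.2% and 7.45% of all genes did. Among the 5 were Uba6 (1.2965 ± 0.25, adjusted p = 0.00864), Ube3a (1.3003 ± 0.26, 0.00871), the shuttle Ubqln2 (0.70 ± 0.15, 0.0131) and Nfe2l2 (0.42 ± 0.12, 0.0297), a stress regulator that binds the ARE. The YFP and WT libraries alone cannot tell lane from construct, and fits with a lane term are not given here for these genes. In S280A against WT 3 were higher and 6 lower (10.1% and 15.9% of all genes), with Ube3a (-1.24 ± 0.26), Zfand5 (-0.83 ± 0.17), the NF-Y subunit Nfyb (-0.63 ± 0.16) and Uba6 (-0.94 ± 0.25) lower. The transcript of Nfe2l1, the main known activator of proteasome genes, was at 474 and 444 CPM with YFP, 418 and 461 with WT, 414 and 433 with S280A, and 385 and 404 with S280D. Its log2 fold change of -0.10 ± 0.11 in S280D against S280A did not pass (adjusted p = 0.485), but with an offset for exon length it was -0.43 and passed (0.0473). Its protein is processed after translation, which these libraries do not measure.

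Intron reads gave a second readout of the same genes. They made up 2.30% to 3.55% of the members' exon and intron reads, against 10.99% to 15.8% over all genes. In S280D against S280A the alpha ring had 6 of 7 positive values with a median of 0.30, and the beta ring 6 of 7 negative values with a median of -0.43. The chaperones had 6 of 7 positive values with a median of 0.82, against an exon median of -0.18. The ATPase ring had a median of -0.29, the other 19S genes -0.05 and the caps and inhibitor -0.37. In that fit Psmd4 fell (-0.88 ± 0.23, adjusted p = 0.0434), the only member called, where 1.95% of 12988 genes were called higher and 2.59% lower. In S280D against YFP Psmb7 fell (-0.77 ± 0.20, adjusted p = 0.0428), again the only one, where 2.41% were higher and 2.94% lower. The other 4 comparisons called 0 members, where 0.654% higher and 1.37% lower (WT against YFP), 0.0154% higher (S280A against YFP), 0.0077% higher (S280A against WT) and 0 genes (S280D against WT) were called. Intron reads of Psmd4 and Psmb7 totalled 4150 and 5841 over the 8 libraries. The Psmb7 locus overlaps that of Nek6, and whether its intron reads belong to Nek6 was not tested. The SE of the 42 members tested ran from 0.21 to 0.74, and Psme4, at 1.40 on exon reads, gave 0.40 ± 0.27 on intron reads and did not pass (0.425).

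Exon length moved with the contrast over all genes. Across the 12407 genes Spearman's rho between exon length and log2 fold change in S280D against S280A was 0.24, and across the 43 members it was 0.20; both are descriptions across genes, which are not independent replicates. Members were short, with a median exon length of 1343 bases against 2314 for all genes, and alpha (1065) and beta (873) medians lay close. With an offset from a smooth curve on exon length, 3 members rose and 21 fell in place of 6 and 16. The share of all genes called with the offset is not given here, so these counts do not show whether the shift is particular to the members. Psme4 (0.78, adjusted p = 0.00279), Psmc6 (0.95, 0.00213) and Psma3 (0.40, 0.0380) kept their calls, while Psma2 (0.33, 0.0771), Psma5 (0.27, 0.147) and Psmd14 (0.21, 0.293) no longer passed. The alpha median was then 0.25 and the beta median -0.59, a gap between rings of 0.68 by their means.

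**Figure D5:**
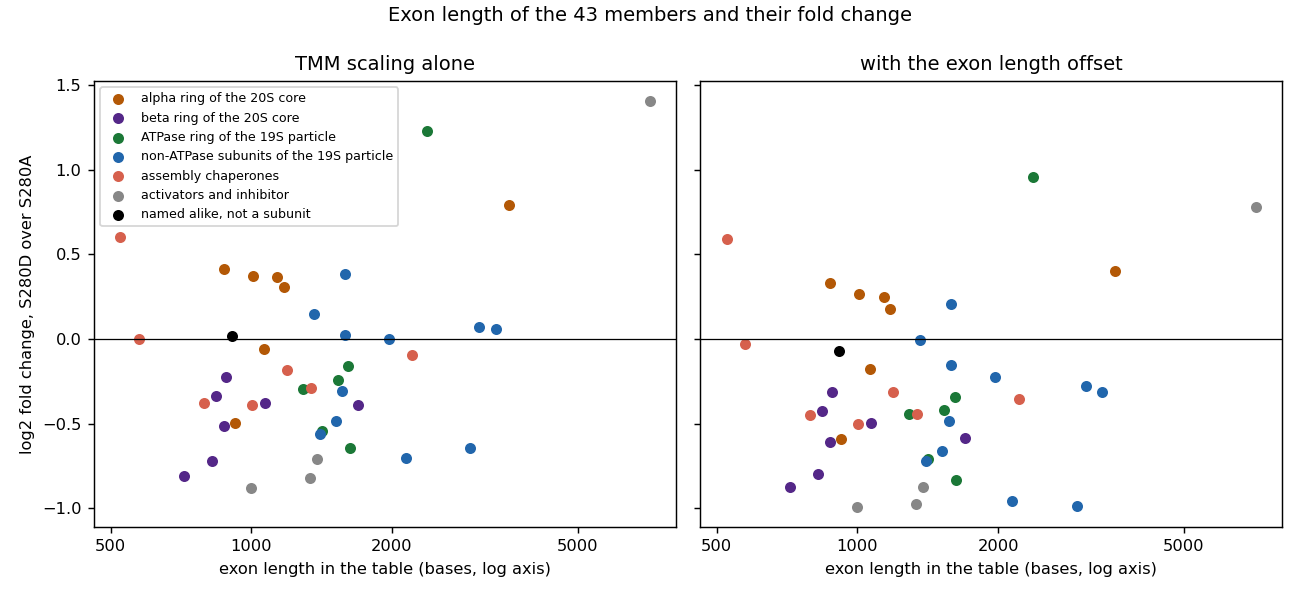
Log2 fold change of the 43 members in S280D over S280A (vertical axis) against exon length (log axis), coloured by role, with TMM scaling alone (left) and with the exon length offset (right). The offset lowers all 43 values, that of Psme4 from 1.40 to 0.78, and leaves the beta genes below 0 and 5 of 7 alpha genes above 0.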

How the data were processed

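RNA-seq of poly(A) RNA from H9C2 cells gave 8 libraries, 2 for each of 4 constructs. Per the file headers, trimmed reads from lanes 1 and 2 were counted per gene by the authors as total, unique and intron reads. The genome build is Rnor_6.0 per the submitters' processing notes, with aligner and annotation not given in the sources used here. Beside counts, the deposited table holds the authors' RPKM, used for levels between genes, and the authors' signed fold changes and adjusted p-values, used only for a count of calls.

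Total exon read counts were fitted with edgeR 4.0.16 (quasi-likelihood, TMM scaling, filterByExpr, all 8 libraries, 1 coefficient per construct, 4 residual degrees of freedom) in R 4.3.3. All 6 pairs were compared, with p-values adjusted by Benjamini and Hochberg over 12407 genes and a threshold of 0.05. Standard errors are the log2 fold change over the root of F. CPM are TMM-scaled. Within-lane differences are of log2 CPM, with no test. Lists and members were chosen with earlier results of these data known. Values in every library are given for the catalytic subunits and, in each role, for the members with the smallest adjusted p. The alpha to beta ratio was added after seeing the data. The code was tested on simulated data. Alternatives were other scaling and filters, DESeq2 1.42.0, unique reads, lane, the replicate block, an exon length offset and each library left out. Promoters are RefSeq's, build GRCr8.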

Additional observations from a re-analysis of the deposited data

How the results depend on the processing

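Counts of members called (edgeR, adjusted p under 0.05) varied with the libraries used. Leaving out each library in turn, where the lone library of its group is assumed to vary like the other groups, gave 3 to 7 higher and 2 to 18 lower in S280D against S280A, 1 to 5 and 2 to 17 in S280D against YFP, 0 to 12 and 0 to 7 in S280A against WT, 0 to 5 and 0 to 8 in WT against YFP, and 0 to 3 higher in S280A against YFP. With lane as a covariate there were 0 higher and 0 lower in WT against YFP, and 3 and 2 in S280D against YFP. The lane term gave 0 higher and 3 lower in S280A against WT, and 3 and 14 in S280D against S280A. With the exon length offset there were 3 higher and 2 lower in WT against YFP, and 3 and 8 in S280D against YFP. The offset gave 13 higher and 2 lower in S280A against WT, and 3 and 21 in S280D against S280A. Without a filter on low counts there were 2 higher and 0 lower in S280A against YFP. The counts were then 7 and 7 in S280A against WT, and 0 and 2 in S280D against WT. On only the 4 libraries compared there were 4 higher and 9 lower in S280D against YFP, and 8 and 7 in S280A against WT. DESeq2 gave 7 higher and 7 lower in S280A against WT. Shares of all genes called in these alternative fits are not given here. Psme2 in S280D against YFP reversed on unique reads, to 0.38 (adjusted p = 0.287). The cause was not tested. Deviations of same-numbered libraries correlated at 0.12 to 0.21 among the 3 receptor groups and at -0.17 to -0.09 between these and YFP, no label says that a number marks a shared batch, and the second WT library is numbered 3 in its description, so the numbers were not taken as pairs. With a replicate block 5 rose and 16 fell in S280D against S280A, 4 and 10 in S280D against YFP, 4 and 6 in S280A against WT and 4 and 5 in WT against YFP. With 2 libraries a group, a p that misses the threshold does not show that levels are alike.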
